A study of Homo sapiens with 9 samples.

Results

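Excision and mismatch repair genes were examined in DU145 cells after knockdown of *FZD6*, the gene of a Frizzled-family Wnt receptor. The members were a list of 40 gene symbols, grouped by repair pathway: 19 of base excision repair, 15 of nucleotide excision repair, 5 of mismatch repair and 1 of direct reversal. They are 40 of the 27902 genes in the RNA-seq tables. All 40 had a mean of at least 1 FPKM (fragments scaled to the length of the transcript and to the mapped reads of the library) over the 9 libraries and entered the tests, which covered 12509 genes.

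DU145 is an established human prostate carcinoma line. There were 3 libraries from control cells carrying a scramble shRNA, 3 from cells carrying shRNA FZD6 #1 (shRNA1) and 3 from cells carrying shRNA FZD6 #2 (shRNA2). No drug or DNA-damaging agent is named for any library. Both shRNAs were compared with the same scramble libraries. The sources used here do not say whether the 3 libraries of a group came from separate cultures, so the p-values measure the spread between these libraries, which may be technical.

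Base excision repair removes small lesions: a glycosylase cuts out the damaged base, the APEX1 endonuclease opens the strand at the empty site, and a polymerase and a ligase refill and seal it. Nucleotide excision repair removes bulky lesions such as ultraviolet photoproducts and platinum adducts by cutting out a short oligonucleotide around them. Mismatch repair corrects replication errors through heterodimers of the MutS and MutL families, and MGMT takes an alkyl group off guanine directly.

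*FZD6* itself checked the labels. It was at 20.9, 20.5 and 20.04 FPKM in scramble, 9.47, 10.2 and 9.80 with shRNA1, and 7.84, 8.79 and 7.69 with shRNA2, so that no knockdown library reached the scramble range. The mean fell by 56.3% over the 6 knockdown libraries (exact permutation test, two-sided, p = 0.0119, the smallest that 6 against 3 libraries allow). The depth, estimated from the confidence bounds in the tables, was 32.2 to 40.3 M fragments a library. The epithelial markers *KRT8*, *KRT18* and *KRT19* lay between 152 and 296 FPKM in all 9 libraries. The other epithelial markers were lower, *EPCAM* at 17.3 to 23.4 FPKM and *CDH1* at 3.38 to 5.02. *PTPRC* and *CD3E* were at 0. The summed stromal markers ranged from 0.784 to 0.945 FPKM in scramble and 0.792 to 1.32 with knockdown, and the leukocyte list (*PTPRC*, *CD3E*, *LYZ*) from 0 to 0.00517 and 0.0183 to 1.14, all of it *LYZ*. Their part in the results was not tested.

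Transcript levels of the members spanned a wide range in scramble cells. *APEX1* had the highest level of the 40 members, at 230.4 ± 5.56 FPKM (SD, n = 3). It was followed by *RAD23B*, the partner of the XPC damage sensor, at 145 ± 3.62 and *DDB1*, an adaptor of the ultraviolet damage ligase, at 108 ± 0.903. Next came *UNG*, the uracil glycosylase, at 74.5 ± 0.396 and *FEN1*, the flap endonuclease of long-patch repair, at 60.6 ± 0.974. At the other end stood *NEIL1*, a glycosylase of oxidized pyrimidines, at 1.123 ± 0.0300 and *ERCC6*, the remodeler of transcription-coupled repair, at 1.62 ± 0.106. The median over the members was 11.5 FPKM, with 13.2 for base excision, 10.3 for nucleotide excision and 5.27 for mismatch repair. FPKM are scaled to transcript length, so these levels can be set beside each other roughly. Sequence shared with other genes and exons covered on the opposite strand, both given below, limit that comparison. The neighbouring levels of *MSH6* (37.3 ± 1.08) and *MPG* (37.0 ± 1.02), and those of *LIG3* (10.5 ± 0.308) and *PMS2* (10.5 ± 0.503), lay within their spread.

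Knockdown of *FZD6* was accompanied by small rises of repair transcripts and by no fall that passed the test when both shRNAs were pooled. Of the 40 members, 10 were called higher (25%, limma, adjusted p under 0.05) where 13.5% of all tested genes were, and 0 were called lower where 7.1% were. At an unadjusted limma p under 0.05, 15 were higher (37.5%, where 22.5% of tested genes were) and 1, *ERCC2*, was lower (2.5%, where 12.9% were). The rises lay between 10.4% and 19.1%. The log2 fold change was above 0 for 34 members and below 0 for 6, with a median of 0.06, beside 58.2% of all tested genes above 0 and a median of 0.03. Base excision repair held 7 of the 10 calls, among 19 genes. Nucleotide excision repair held the other 3, among 15, and the 5 mismatch repair genes and *MGMT* held 0. This split by pathway did not hold with the length trend described below removed. In 9 members all 6 knockdown libraries lay above all 3 scramble libraries, where 16.4% of tested genes did, and in 1, *DDB1*, all lay below, where 9.46% did.

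**Figure D1:**
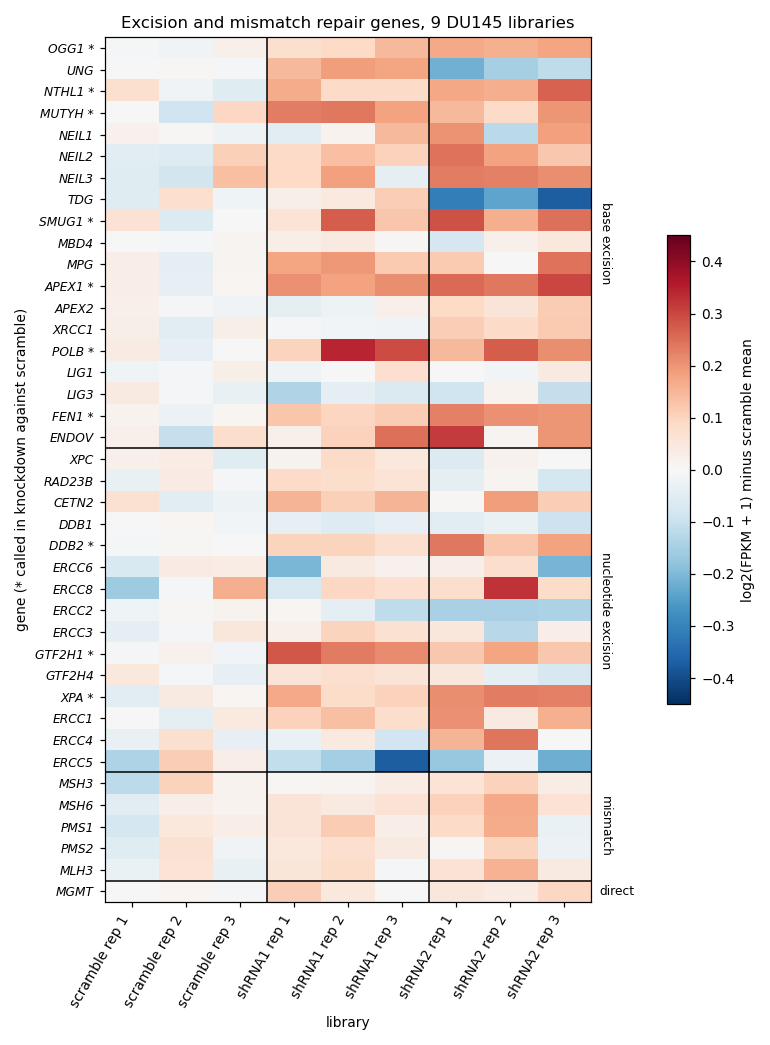
Heat map of log2(FPKM + 1) minus the scramble mean for the 40 members (rows, by pathway) in the 9 libraries (columns). Red is above and blue below the scramble mean, and an asterisk marks the 10 members called in knockdown against scramble; *UNG* is red in the 3 shRNA1 and blue in the 3 shRNA2 libraries, and *TDG* is blue with shRNA2.

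The counts rest on few control libraries. Without scramble replicate 1 the members called higher numbered 1 (2.5%, where 6.02% of tested genes were) and without scramble replicate 2 they numbered 2 (5%, where 5.07% were), so that their share was no longer above that of all genes. Leaving out scramble replicate 3 or shRNA2 replicate 3 gave 6 each (15%, where 7.67% and 10.8% were). The study's cut-offs, an unadjusted p under 0.01 with a change of at least 1.2-fold, were applied here to log2(FPKM + 1). No member passed them, where 1.1% of tested genes (138) passed upward and 1.78% (223) downward. The study reported more genes in each direction, so the cut-offs as applied here are not an exact repeat.

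The glycosylases recognise the lesion and set the specificity of base excision repair. Of 11, 4 were called higher with knockdown: *OGG1*, which removes oxidized guanine, *NTHL1*, which removes oxidized pyrimidines, *MUTYH*, which removes adenine opposite oxidized guanine, and *SMUG1*, which removes uracil and hydroxymethyluracil. *OGG1* was at 13.8, 13.7 and 14.1 FPKM in scramble, 14.6, 14.8 and 15.4 with shRNA1, and 15.7, 15.6 and 15.8 with shRNA2. The 3 groups did not overlap, and the log2 fold change in knockdown was 0.14 ± 0.03 (SE, limma adjusted p = 0.020). On the opposite strand, *CAMK1* and *TADA3* cover 29.04% of the exonic bases of *OGG1*. The library kit keeps strand, but the setting used for counting is not given in the sources used here. The same limit holds for the 11 members with over 10% of their exonic bases covered on the opposite strand, which include *NTHL1*, *MUTYH*, *MPG*, *XRCC1*, *LIG3*, *XPC*, *ERCC1*, *ERCC4* and *MSH6*.

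*NTHL1* had 22.3, 20.9 and 20.3 FPKM in scramble, 23.8, 22.5 and 22.5 with shRNA1, and 24.0, 23.8 and 25.6 with shRNA2. All knockdown libraries were above scramble, although scramble replicate 1 lay just under the lowest shRNA1 libraries. *MUTYH* had 6.58, 6.14 and 7.11 FPKM in scramble, 7.91, 7.95 and 7.62 with shRNA1, and 7.41, 7.07 and 7.73 with shRNA2. One shRNA2 library lay below the highest scramble library. *SMUG1* had 16.1, 14.7 and 15.3 FPKM in scramble, 16.0, 18.7 and 16.8 with shRNA1, and 18.9, 17.3 and 18.4 with shRNA2, so one shRNA1 library fell within the scramble range. The log2 fold changes were 0.16, 0.18 and 0.19, with limma adjusted p-values of 0.044, 0.030 and 0.043 in that order. Each of these 3 calls was lost in most of the 9 fits that left out 1 library: *NTHL1* and *SMUG1* passed in 2 and *MUTYH* in 3, while *OGG1* passed in 7.

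The other glycosylases were not called in knockdown as a whole. *NEIL2*, for oxidized bases in bubble structures, had a log2 fold change of 0.15 (95% interval 0.04 to 0.26, limma adjusted p = 0.063), *NEIL3*, for lesions in single-stranded and crosslinked DNA, 0.15 (−0.01 to 0.31) and *MPG*, for alkylated purines, 0.14 (0.03 to 0.26). *MBD4*, for thymine or uracil opposite guanine at methylated sites, stood at 0.01 (−0.06 to 0.08), the narrowest interval of the glycosylases. *NEIL1*, at about 1 FPKM and also covered on the opposite strand, stood at 0.06 (−0.11 to 0.23).

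After the glycosylase, *APEX1* cuts the abasic site, *POLB* fills the gap and *FEN1* trims the displaced flap. All 3 were called higher. *APEX1* was at 235, 224 and 232 FPKM in scramble, 266, 262 and 266 with shRNA1, and 275, 272 and 284 with shRNA2. The groups did not overlap, the rise was 17.5%, and the log2 fold change of 0.23 ± 0.03 (SE, limma adjusted p = 0.0032) was the largest of the 40 members on the log2(FPKM + 1) scale, while *POLB* had the larger percent change. *APEX1* was also the only one of the 10 to pass in each of the 9 fits that left out 1 library (adjusted p up to 0.021).

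*POLB* was at 9.69, 9.16 and 9.43 FPKM in scramble, 10.2, 12.2 and 11.8 with shRNA1, and 10.5, 11.6 and 11.04 with shRNA2. Its shRNA1 libraries were the more scattered, with an SD of 1.08 against 0.264 in scramble. The log2 fold change was 0.23 ± 0.05 (SE, limma adjusted p = 0.022), a rise of 19.1% on about 396 to 587 fragments a library. *FEN1* was at 61.3, 59.5 and 61.0 FPKM in scramble, 66.2, 64.9 and 65.8 with shRNA1, and 71.1, 70.1 and 69.7 with shRNA2, 3 ranges with no overlap. Its log2 fold change was 0.16 ± 0.04 (SE, limma adjusted p = 0.016), on 4148 to 5337 fragments. In the 9 fits that left out 1 library, the *POLB* call held in 6 and the *FEN1* call in 7. *POLB* lost its call whichever scramble library was left out.

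The ligases and the scaffold that complete the repair did not pass the test. *LIG1*, which seals the long patch, stood at 0.01 (95% interval −0.05 to 0.08), *LIG3*, which seals the short patch, at −0.07 (−0.15 to 0.01), and *XRCC1*, the scaffold of *LIG3*, at 0.05 (−0.05 to 0.14). The study's protein array found less XRCC1 protein after knockdown, a measure other than the RNA values given here. *APEX2*, the second abasic endonuclease, stood at 0.04 (−0.05 to 0.13).

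**Figure D2:**
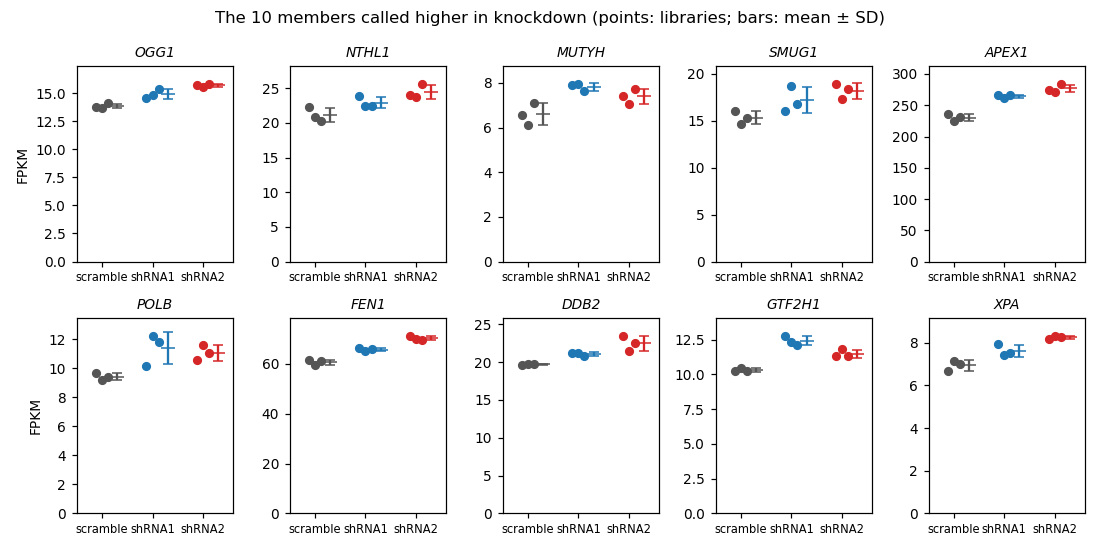
FPKM of the 10 members called higher in knockdown against scramble, by group. Points are the 3 libraries of each group, bars the mean ± SD, and each axis starts at 0; the *OGG1*, *APEX1* and *FEN1* groups do not overlap, while *MUTYH* and *SMUG1* knockdown libraries reach into the scramble range.

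*XPC* and *ENDOV* were also measured by qRT-PCR in the study, which reported both, and *POLE*, as lower after knockdown. Neither *XPC* nor *ENDOV* was called lower in the RNA-seq values given below. *POLE*, not a member, was called lower, at a log2 fold change of −0.28 (limma adjusted p = 0.0080). The PCR came from 4 independent experiments with scrambled and *FZD6* shRNA, while these RNA-seq calls pool both shRNAs. The primer sequences and their places in the genome are shown here because they define which transcripts that assay reads. All 4 primers lie in coding sequence of GRCh38, and none had a match in another gene.
*ENDOV* forward, across the junction of exons 1 and 2 on chromosome 17 (80415238 to 80415656, plus strand): cactgtggaaacgggagcaa
*ENDOV* reverse, in exon 2 (80415743 to 80415763): ttcacgaaggacacgtcaacg
*XPC* forward, in exon 5 on chromosome 3 (14167204 to 14167222, minus strand): cttcggagggcgatgaaac
*XPC* reverse, in exon 6 (14165441 to 14165462): ttgagaggtagtaggtgtccac

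The *ENDOV* product is 127 bases long, and 8 of 30 annotated transcripts of the gene hold both primer sites. The *XPC* product is 199 bases long, and 5 of 7 annotated transcripts hold both.

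*ENDOV*, the nuclease for deaminated purines, had 10.8, 9.86 and 11.3 FPKM in scramble, 10.8, 11.5 and 12.8 with shRNA1, and 13.5, 10.8 and 12.4 with shRNA2. The groups overlapped, and the log2 fold change of 0.15 ± 0.08 (SE, limma adjusted p = 0.19) was not called, with a 95% interval of −0.02 to 0.32. Its main RefSeq transcript, NM_001164638, which holds both primer sites, had means of 6.97 ± 0.488, 7.36 ± 0.714 and 7.35 ± 1.32 FPKM (SD, n = 3) in scramble, shRNA1 and shRNA2. The other tested transcript, NM_001352761, had 2.87 ± 0.827, 4.09 ± 0.478 and 4.55 ± 0.541, a log2 fold change of 0.48 ± 0.14 (SE, limma adjusted p = 0.13 over transcripts).

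*XPC*, the sensor of helix distortion that starts global-genome nucleotide excision repair, had 7.89, 7.94 and 7.42 FPKM in scramble, 7.83, 8.28 and 8.04 with shRNA1, and 7.38, 7.86 and 7.75 with shRNA2. The 3 groups overlapped. The log2 fold change was 0.02 with a 95% interval of −0.06 to 0.10 (limma adjusted p = 0.76), on the log2(FPKM + 1) scale. The sign of this value turned under several settings, given in the closing section, and 30.4% of the exonic bases of *XPC* are covered on the opposite strand by *LSM3* and 2 other genes. The transcript NM_004628, which holds both primer sites, had means of 6.42 ± 0.347, 6.18 ± 1.55 and 6.40 ± 0.458 FPKM (SD, n = 3).

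The remaining recognition factors of nucleotide excision repair were divided. *DDB2*, which finds ultraviolet photoproducts in chromatin, had 19.6, 19.8 and 19.7 FPKM in scramble, 21.2, 21.2 and 20.8 with shRNA1, and 23.4, 21.5 and 22.5 with shRNA2. Every knockdown library was above the narrow scramble range, at a log2 fold change of 0.14 ± 0.04 (SE, limma adjusted p = 0.039). The call held in 3 of the 9 fits that left out 1 library. Its partner *DDB1* had all 6 knockdown libraries, 101.2 to 105.7 FPKM, below the 3 scramble libraries, 107.0 to 108.8, but the log2 fold change of −0.05 (95% interval −0.10 to 0.00088) was not called (limma adjusted p = 0.15). *RAD23B* stood at 0.02 (−0.08 to 0.12) and *CETN2*, the centrin of the XPC complex, at 0.12 (0.02 to 0.22).

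TFIIH opens the helix around the lesion and XPA checks that it is damaged. *GTF2H1*, a core subunit of TFIIH, had 10.3, 10.5 and 10.2 FPKM in scramble, 12.8, 12.3 and 12.1 with shRNA1, and 11.3, 11.8 and 11.3 with shRNA2. Both knockdown groups lay above scramble and did not overlap, with shRNA1 the higher, and the log2 fold change was 0.19 ± 0.04 (SE, limma adjusted p = 0.012). *XPA* had 6.68, 7.16 and 6.98 FPKM in scramble, 7.92, 7.41 and 7.53 with shRNA1, and 8.18, 8.32 and 8.28 with shRNA2. Here shRNA2 was the higher, and the log2 fold change was 0.17 ± 0.04 (SE, limma adjusted p = 0.023). In the 9 fits that left out 1 library, the *GTF2H1* call held in 8 and the *XPA* call in 6. *XPA* lost its call whichever scramble library was left out.

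The other TFIIH subunits on the list were not called. *ERCC2*, the XPD helicase, stood at −0.10 (95% interval −0.19 to −0.01, limma adjusted p = 0.12), *ERCC3*, the XPB translocase, at 0.02 (−0.09 to 0.14) and *GTF2H4* at 0.02 (−0.07 to 0.11). *GTF2H4* shares 93.7% of its 50-base words with the annotated gene *VARS2*, so its value is uncertain. Of the structure-specific nucleases, *ERCC1* stood at 0.12 (0.03 to 0.21, limma adjusted p = 0.063) and its partner *ERCC4* at 0.05 (−0.11 to 0.22). *ERCC5*, the 3′ nuclease, had the lowest log2 fold change of the members, −0.18 (−0.35 to 0.0016), but shares 99.9% of its words with the readthrough gene *BIVM-ERCC5*. The transcription-coupled factors *ERCC6* and *ERCC8* stood at −0.04 (−0.21 to 0.13) and 0.10 (−0.11 to 0.30), with 44.6% of the words of *ERCC8* found in other genes.

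The 5 mismatch repair members and *MGMT*, the member of direct reversal, stayed within narrow limits. *MSH6*, which pairs with a common partner to recognise base mismatches, stood at 0.08 (95% interval 0.0047 to 0.16) with all 6 knockdown libraries, 38.4 to 42.1 FPKM, above the scramble range of 36.1 to 38.1. *MSH3*, which recognises larger loops, stood at 0.04 (−0.06 to 0.15). The MutL genes *PMS1*, *PMS2* and *MLH3* stood at 0.07, 0.04 and 0.06, with *PMS2* sharing 34.1% of its words with its pseudogenes. *MGMT* was at 5.81 ± 0.0490 FPKM in scramble and 6.08 ± 0.192 over the 6 knockdown libraries, a log2 fold change of 0.06 (−0.01 to 0.12). A 1.2-fold change lies outside the intervals of all 6.

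Each shRNA was then compared with the shared scramble libraries. With shRNA1, 8 members were called higher (20%, where 11.7% of tested genes were) and 0 lower (where 7.19% were), and at an unadjusted limma p under 0.05 the counts were 14 (35%, where 22.1% were) and 0 (where 12.8% were). With shRNA2, 12 were called higher (30%, where 15.3% were) and 3 lower (7.5%, where 11.4% were). Called higher with each were *OGG1*, *APEX1*, *POLB*, *FEN1*, *GTF2H1* and *XPA*, 6 of the 40, where 7.87% of tested genes were. *APEX1* had log2 fold changes of 0.20 and 0.26 with shRNA1 and shRNA2, *FEN1* of 0.11 and 0.21, *GTF2H1* of 0.24 and 0.14, and *XPA* of 0.12 and 0.22, each with an SE of 0.02 to 0.03. *POLB* had 0.25 and 0.21 with an SE of 0.07, and its shRNA2 call was marginal (limma adjusted p = 0.0499). Of 23 alternatives, the shRNA1 call was lost in 15 for *XPA*, 12 for *OGG1*, 10 for *POLB* and 6 for *FEN1*, and the shRNA2 call in 13 for *POLB*, 2 for *XPA* and 1 for *OGG1*. With the length trend described below removed, *XPA* stood at 0.019 and *FEN1* at 0.040 with shRNA1, neither called. The comparisons share their controls, so one does not repeat the other independently.

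**Figure D3:**
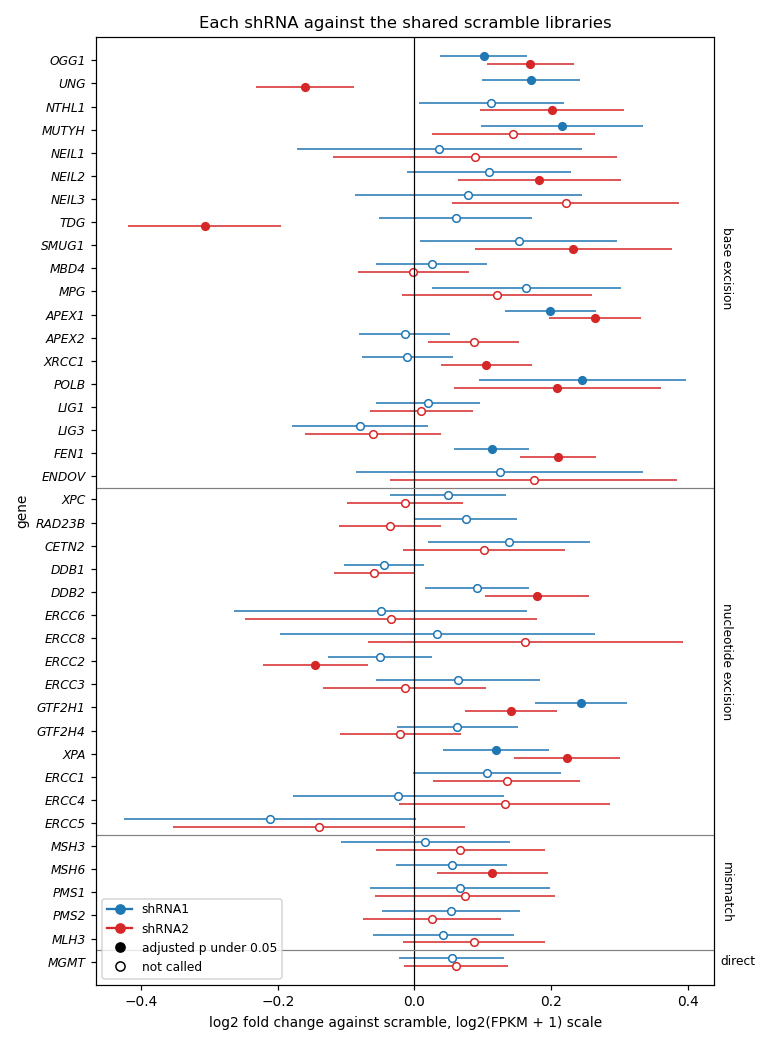
Log2 fold change of each of the 40 members with shRNA1 (blue) and shRNA2 (red) against the shared scramble libraries, on the log2(FPKM + 1) scale. Horizontal bars are 95% intervals and filled points passed an adjusted p under 0.05; the filled points of *UNG* lie on opposite sides of 0 and the red points of *UNG*, *TDG* and *ERCC2* are the filled ones below 0.

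Beyond these 6, shRNA1 had calls for *UNG* and *MUTYH*, both higher. With shRNA2, *NTHL1*, *NEIL2*, *SMUG1*, *XRCC1*, *DDB2* and *MSH6* were called higher, with log2 fold changes from 0.10 for *XRCC1* to 0.23 for *SMUG1*. Of 23 alternatives, these calls were lost in 15 for *MSH6*, 12 each for *NEIL2* and *XRCC1*, 7 for *SMUG1* and 4 for *NTHL1*, and the *MUTYH* call with shRNA1 in 7. A call with one shRNA and not with the other does not show that they differ. Tested directly, none of *NTHL1*, *NEIL2*, *SMUG1*, *XRCC1*, *DDB2*, *MSH6* and *MUTYH* was called as different between the shRNAs, and the widest 95% interval among them, that of *SMUG1*, ran from −0.06 to 0.22. For *XRCC1* the difference was 0.12 (0.05 to 0.18, limma adjusted p = 0.055). *ERCC2*, lower with shRNA2 by −0.14 ± 0.03 (SE, limma adjusted p = 0.017), differed from shRNA1 by −0.09 (−0.17 to −0.02, limma adjusted p = 0.14).

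*UNG* and *TDG* were the members called as different between the shRNAs. Both were lower with shRNA2 than with shRNA1, 2 of 40 (5%) where 4.79% of tested genes were, and 0 members were called higher where 1.92% were. At an unadjusted limma p under 0.05, 5 were lower (12.5%, where 12.9% of tested genes were) and 7 higher (17.5%, where 9.55% were) with shRNA2, the latter being *OGG1*, *APEX2*, *XRCC1*, *FEN1*, *DDB2*, *XPA* and *ERCC4*. *UNG* and *TDG* are glycosylases of uracil and of thymine mispaired with guanine, the products of cytosine and methylcytosine deamination. *SMUG1* and *MBD4*, which also act on uracil or such mispairs, were not called as different. Their differences were 0.08 (limma adjusted p = 0.50) and −0.03 (limma adjusted p = 0.71). *UNG* had 74.5, 74.8 and 74.0 FPKM in scramble, 82.5, 84.9 and 84.3 with shRNA1, and 64.0, 67.1 and 68.6 with shRNA2. Its groups were well separated, with scramble between the shRNAs.

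*UNG* rose by 12.7% with shRNA1 (log2 fold change 0.17 ± 0.03, SE, limma adjusted p = 0.011) and fell by 10.6% with shRNA2 (−0.16 ± 0.03, limma adjusted p = 0.0094). The difference was −0.33 with a 95% interval of −0.40 to −0.26 (limma adjusted p = 0.0014). It was the member called with each shRNA in opposite directions, an arrangement that 0.216% of tested genes had. The rise with shRNA1 was not called after quantile normalization (0.11, limma adjusted p = 0.053) or with the length trend removed (0.095, limma adjusted p = 0.073), while the fall with shRNA2 was called in all 23 alternatives. Pooled, the 6 knockdown libraries gave *UNG* a log2 fold change of 0.00 (−0.22 to 0.23), which describes neither shRNA.

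*TDG* had 7.05, 7.80 and 7.24 FPKM in scramble, 7.51, 7.61 and 8.02 with shRNA1, and 5.73, 6.09 and 5.46 with shRNA2. Scramble and shRNA1 overlapped, and the 3 shRNA2 libraries lay below both. *TDG* fell by 21.8% with shRNA2 (log2 fold change −0.31 ± 0.05, SE, limma adjusted p = 0.0045) and stood at 0.06 (95% interval −0.05 to 0.17) with shRNA1. The difference was −0.37 (−0.48 to −0.26, limma adjusted p = 0.0055). Of the 50-base words of *TDG*, 10.9% are shared with the pseudogene *TDGP1*. The residual *FZD6* level was 9.83 ± 0.376 FPKM with shRNA1 and 8.11 ± 0.598 with shRNA2 (SD, n = 3). The part of that gap in the *UNG* and *TDG* differences was not tested.

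The gene-level values sum transcripts, and for *UNG* these come from separate start sites. NM_080911 begins at the upstream site and encodes UNG2, the nuclear enzyme that follows the replication fork. NM_003362 begins at the downstream site and encodes UNG1, the mitochondrial form. NM_080911 had 64.0, 66.2 and 62.8 FPKM in scramble, 74.2, 73.5 and 74.3 with shRNA1, and 55.7, 57.8 and 58.9 with shRNA2. Its difference between the shRNAs was −0.36 ± 0.04 (SE, limma adjusted p = 0.028 over 19780 transcripts). Against scramble it stood at 0.20 with shRNA1 (limma adjusted p = 0.092) and −0.16 with shRNA2 (limma adjusted p = 0.093), neither called. NM_003362 had 10.5, 8.63 and 11.2 FPKM in scramble, 8.32, 11.4 and 9.94 with shRNA1, and 8.21, 9.28 and 9.79 with shRNA2. The 3 groups overlapped, and the difference was −0.10 ± 0.13 (SE, limma adjusted p = 0.83). Whether the transcripts differ from each other was not tested, and Cufflinks estimated their shares from largely common exons.

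The sequences just before these start sites are shown because the measured difference was called for the transcript of the upstream one. Each is the stretch of 196 bases that ends before the earliest annotated exon base at that start, on the plus strand of chromosome 12, from the RefSeq promoter table (GRCh38.p14). Capitals mark, on either strand, the GC box GGGCGG, the CCAAT box, the E-box CACGTG and the E2F-type motif TTGGCGC in each window.
UNG2 start, chr12:109097378-109097573: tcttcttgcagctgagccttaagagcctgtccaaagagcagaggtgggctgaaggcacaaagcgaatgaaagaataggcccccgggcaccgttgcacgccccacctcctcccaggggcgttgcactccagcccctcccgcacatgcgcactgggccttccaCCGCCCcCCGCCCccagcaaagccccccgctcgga
UNG1 start, chr12:109097922-109098117: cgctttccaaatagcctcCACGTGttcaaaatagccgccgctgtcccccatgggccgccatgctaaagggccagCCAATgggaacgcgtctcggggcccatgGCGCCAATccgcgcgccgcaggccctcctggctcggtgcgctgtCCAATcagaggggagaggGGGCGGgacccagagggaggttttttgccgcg

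The upstream window held 2 GC boxes and no copy of the other motifs. The downstream window held 1 GC box, 3 CCAAT boxes, 1 E-box and 1 E2F-type motif, which overlaps a CCAAT box. As a background, the first 196 bases of each of 35116 promoter entries were searched. Of these, 34.2% held a GC box, 26.7% a CCAAT box, 4.36% the E-box and 1.93% the E2F-type motif. The UNG1 window is placed in the same way. The UNG2 window starts later in its entry, nearer the RefSeq start, so the background matches it in length but not in position. GC content was 65.8% and 66.3%. These matches describe the letters and not binding.

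*TDG* was carried mainly by NM_003211, with 5.82, 5.65 and 5.99 FPKM in scramble, 5.14, 5.82 and 5.23 with shRNA1, and 4.38, 4.40 and 3.65 with shRNA2. All shRNA2 libraries lay below the rest, at a log2 fold change of −0.41 ± 0.07 (SE, limma adjusted p = 0.042 over transcripts) against scramble. The difference from shRNA1, −0.32 ± 0.07, was not called for this transcript (limma adjusted p = 0.17). NM_001363612 had means of 1.54 ± 0.518, 2.32 ± 0.497 and 1.62 ± 0.240 FPKM (SD, n = 3) in scramble, shRNA1 and shRNA2.

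**Figure D4:**
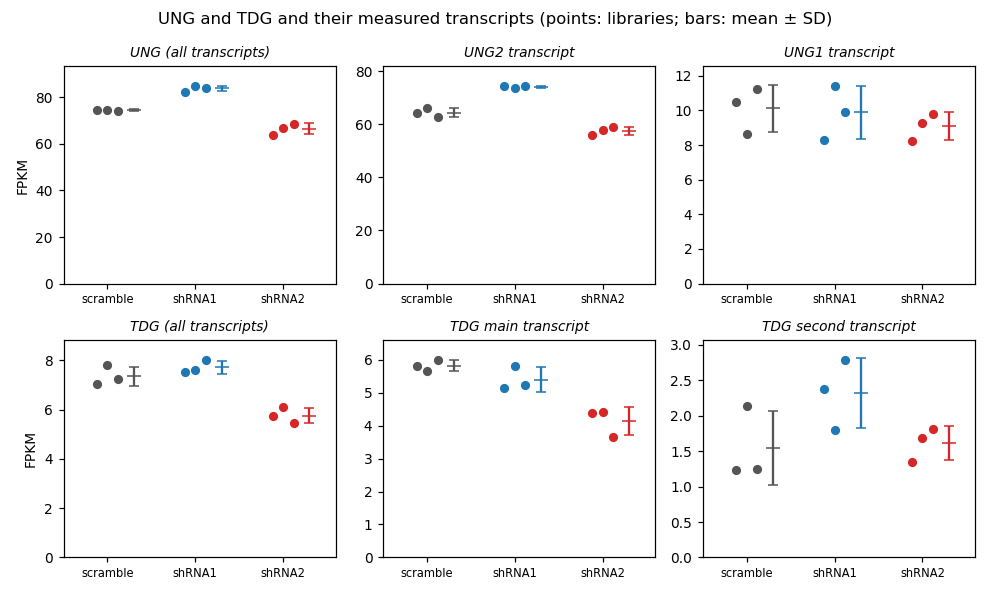
FPKM of *UNG* and *TDG*, of the UNG2 (NM_080911) and UNG1 (NM_003362) transcripts, and of the main (NM_003211) and second (NM_001363612) *TDG* transcripts. Points are the 3 libraries of each group and bars the mean ± SD, with axes from 0; the UNG2 groups are separated, from 55.7 to 58.9 with shRNA2 to 73.5 to 74.3 with shRNA1, and the UNG1 groups overlap.

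Transcript by transcript, 73 of the 217 member transcripts reached a mean of 1 FPKM. In knockdown against scramble, 1 was called, NM_005316 of *GTF2H1*, higher by 0.25 (limma adjusted p = 0.0497), where 1.09% of all tested transcripts were called in either direction. The other 9 members called at gene level had no called transcript in that comparison.

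The other genes of these pathways gave a reference. A list of 41 was used: accessory factors of each pathway and the clamp, clamp loader, polymerase and RPA genes that resynthesize the excised strand. Of the 41, 15 were called higher and 2 lower in knockdown (where 13.5% and 7.1% of all tested genes were), with a median log2 fold change of 0.09. Resynthesis held 10 of the 15, among 18: *PCNA*, the clamp, *RFC2*, *RFC3*, *RFC4* and *RFC5* of the clamp loader, *POLE2*, *POLE3* and *POLE4* of polymerase epsilon, and *RPA2* and *RPA3*, which bind the exposed strand. The other 5 were *APTX*, *CCNH*, *RBX1*, *EXO1* and *ALKBH2*. Those called lower were *PARP1*, the sensor of strand breaks, with a log2 fold change of −0.09, and *POLE*, the catalytic subunit of polymerase epsilon, with −0.28. The 10 resynthesis genes called higher have short transcripts, the longest running from 1248 bases (*POLE4*) to 2449 (*RFC5*). That of *POLE* has 8011 bases, and the median of all tested genes is 3420. Calls of the 41 with the length trend described below removed, or with a library left out, are not given here.

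The log2 fold change varied with transcript length. Over 11742 tested genes with an annotated length, the log2 fold change in knockdown and the longest transcript had a Spearman rho of −0.41, across genes, which are not independent. Over the 40 members rho was −0.56. The median log2 fold change was 0.11 in the shortest of 10 equal length classes of all genes, with a median of 684 bases, and −0.10 in the longest, with 8911 bases. The members called higher had a median longest transcript of 2113 bases, those not called 3592, and all 40 together 3173, beside 3420 for all tested genes.

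**Figure D5:**
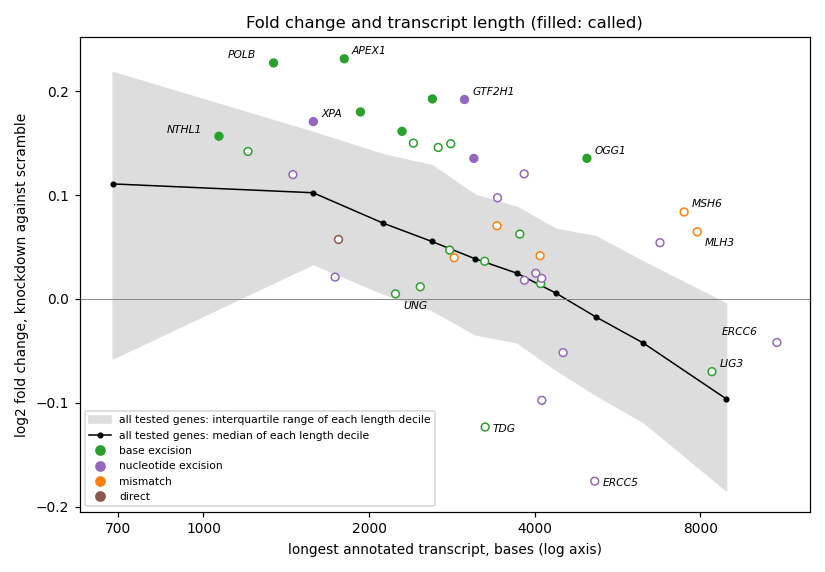
Log2 fold change in knockdown against scramble of each member plotted against its longest annotated transcript (log axis), coloured by pathway and filled where called. The black line joins the medians of 10 length classes of all tested genes, from 0.11 in the shortest to −0.10 in the longest, and the grey band is the interquartile range of each class.

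When the length trend was removed from each library, 5 members were called higher (12.5%, where 6.91% of the 11742 genes were) and 3 of these were among the 10. *APEX1* kept a log2 fold change of 0.14 (limma adjusted p = 0.017), *GTF2H1* of 0.15 (limma adjusted p = 0.037) and *OGG1* of 0.15 (limma adjusted p = 0.028). Newly called were the long genes *MSH6* at 0.15 (limma adjusted p = 0.0092) and *MLH3* at 0.14 (limma adjusted p = 0.011). Of the 5, *APEX1* and *OGG1* belong to base excision, *GTF2H1* to nucleotide excision, and *MSH6* and *MLH3* to mismatch repair. Base excision repair thus no longer held most of the calls. The short genes *NTHL1* and *XPA* moved to 0.04 and 0.07 and *POLB* to 0.12, none called. The differences of *UNG* and *TDG* between the shRNAs were −0.32 and −0.36 after the removal, both called (limma adjusted p = 0.00097 and 0.0038), but *UNG* was then not called with shRNA1, so that 0 members were called with each shRNA in opposite directions (where 0.23% of genes were). What the length trend comes from was not tested.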

How the data were processed

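RNA-seq of 9 DU145 libraries was analyzed. The authors prepared stranded mRNA libraries, aligned them by STAR and used Cufflinks for quantification. The deposited tables list, per RefSeq accession and locus, an FPKM value and its confidence bounds. The loci are those of hg38, as the submitters' notes state, although the methods name mm10. The tool versions and the strand setting are not given in the sources used here.

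Of 73240 accessions, 72645 matched a RefSeq gene table (GRCh38.p14). FPKM were summed over the accessions of each gene, and 42 genes with an entry not marked usable were left out. Genes whose mean reached 1 FPKM were tested on log2(FPKM + 1) in limma (version 3.58.1, R 4.3.3). Adjusted p-values (Benjamini-Hochberg, over all tested genes) had a threshold of 0.05, and intervals are 95%. Fold changes on this scale understate those of low genes. Knockdown (6 libraries) was compared with scramble (3), and each shRNA with scramble and with the other in a model of 3 groups. The tables hold no counts. Fragments were estimated from the confidence bounds of genes with 1 accession, which covers counting error only, and the 3 libraries per group limit the precision. Transcripts, positions, lengths, and 50-base words shared with other genes came from GENCODE v29. The trend in length was removed within each library by lowess (span 0.3).

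The members and lists were chosen with earlier results of these data known. Named with values in every library are *XPC*, *ENDOV* and the members called in knockdown against scramble or between the shRNAs. Alternatives were other pseudocounts, filters, scalings, a replicate block, other sets of accessions, other fits and leaving out each library. The code was tested on simulated data. Figures were made with Python 3.11.15 and matplotlib 3.10.9. The other experiments of the study were not analysed here.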

Additional observations from a re-analysis of the deposited data

Results flagged for a closer look

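The difference between the shRNAs passed the test for *UNG*, −0.33 on the log2 scale (shRNA2 minus shRNA1), with all 3 shRNA1 libraries above and all 3 shRNA2 libraries below scramble, and for *TDG*, −0.37, with all 3 shRNA2 libraries below the others. Neither difference lost its call in any of 23 alternatives: *UNG* ranged from −0.35 to −0.30 (limma adjusted p up to 0.019) and *TDG* from −0.42 to −0.33 (limma adjusted p up to 0.027).

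In 2 members, 1 of the 6 knockdown libraries lay far from the other 5. *MBD4* was lowest in shRNA2 replicate 1, at 11.7 FPKM, where the gap to the next library was 0.651 of the whole range. *ERCC3* was lowest in shRNA2 replicate 2, at 9.02 FPKM, with a gap of 0.646 of the range. Chance gives such a gap in about 1 in 20 groups, which is 2.05 of the 41 genes examined.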

How the results depend on the processing

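Members called higher in knockdown against scramble numbered 10. They numbered 6 after quantile normalization, 5 with the length trend removed, and 4 with the replicate block and the length trend removed. They numbered 0 by the study's cut-offs as applied here, and 1 to 11 when each library was left out. Members called lower numbered 0, and 1 (*ERCC2*) in the 3-group model, with 0 to 1 when each library was left out (1 without shRNA1 replicate 1). With shRNA1 the 8 calls became 5 after quantile normalization, 4 with the length trend removed, 5 with the block and the length trend removed, and 3 to 12 when each library was left out, where any scramble library and any shRNA1 library brought them to 5 or fewer. With shRNA2 the 15 calls ranged from 8 (without scramble replicate 2) to 16 when each library was left out, and from 11 to 17 under the other settings. Between the shRNAs the 2 calls became 4 without a filter, 4 with a mean of at least 5 FPKM, 4 after quantile normalization, 5 with the length trend removed, 6 with the block and the length trend removed, and 2 to 5 when each library was left out (5 without shRNA2 replicate 2). Of single members, the *XPC* log2 fold change of 0.02 in knockdown turned to −0.000091 with the length trend removed (the same with the block added), −0.022 with protein-coding accessions only and −0.038 transcript by transcript, and ranged from −0.0096 (without scramble replicate 3) to 0.034 when each library was left out. That of *UNG* turned to −0.000303 after centring, −0.045 after quantile normalization and −0.065 with the length trend removed (the same with the block added), and ranged from −0.031 to 0.049 when each library was left out. *NEIL2* turned to −0.087 for its most abundant accession, a noncoding one, and *XRCC1* to −0.0016 with the length trend removed (the same with the block added). None of these 4 was called in either direction under those settings. *APEX1* kept its call in 23 of 24 alternatives, the exception being transcript by transcript (limma adjusted p = 0.18). The cause of these changes was not tested.

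The titles number the replicates but do not say whether the numbers pair libraries across groups. Deviations of same-numbered libraries correlated at −0.071 to 0.11 and those of other pairs at −0.12 to 0.18. In both other groups at once, 3 of 9 libraries correlated best with their own number. Correlations this weak do not settle whether the libraries are paired. With the replicate numbers as a block, 7 members were called higher in knockdown in place of 10. The fragments behind *NEIL1* and *ERCC6*, the lowest members, were not estimated, so the precision that depth gives them is unknown.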
